A study of Macaca mulatta with 28 samples.

Results

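The comparison described here sets 2 groups of older male rhesus macaques (Macaca mulatta) side by side, 5 animals named ONTC and 8 named OC, as a measure of how far older animals of different groups differed from each other in the hippocampus. They are 13 of the 28 animals of the series, and each gave 1 RNA-seq library from the mid-body hippocampus. The group names come from the group means that the authors deposited: the means of animals 25 to 29 equal the ONTC column, and the means of animals 11 to 17 and 44 equal the OC column, in all 16350 genes (tolerance 1e-06). No source used here spells out the abbreviations, names a treatment for either group or states whether they were processed as separate batches, so group and any such batch cannot be told apart. The labels give male sex, hippocampus and age for every animal and name no genotype or agent. The ONTC animals were 24.46, 24.13, 20.27, 25.83 and 17.36 years old (animals 25 to 29 in that order; mean 22.4 ± 3.50, SD, n = 5), and the OC animals were 19.96 to 27.76 years old (mean 23.9 ± 2.89, SD, n = 8). A separate group of 10 young animals, 8.06 to 14.72 years old, is quoted only for its levels.

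The hippocampus is a main target of glucocorticoids in the brain. The enzyme 11β-hydroxysteroid dehydrogenase type 1, encoded by HSD11B1, regenerates active cortisol inside cells from inert cortisone, and it depends on NADPH that H6PD makes in the endoplasmic reticulum. Cortisol then binds the mineralocorticoid receptor (NR3C2) with high affinity and the glucocorticoid receptor (NR3C1) with lower affinity, and both regulate transcription in hippocampal neurons. The study that reported the series examined this pathway in young and old males and does not name ONTC or OC.

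Expression is given as CPM, counts scaled by the reads on all listed genes and expressed per M reads. The ONTC libraries held 57.9 to 168.6 M reads on these genes (median 102.5) and the OC libraries 48.1 to 73.8 M reads (median 62.7), so that a count of 3 reads, the limit that a count of 0 allows, corresponded to 0.0178 to 0.0623 CPM, covering counting error only. No pair of libraries agreed within sampling noise. The library of animal 28 (ONTC, the deepest) stood apart: the first principal component of log2 expression held 30.9% of the variance, with animal 28 at 154.4 and the other 12 animals between -41.2 and 12.2. In that library 2287 genes lay more than 2-fold below all 12 others and 307 lay more than 2-fold above them, while no other library had more than 86 and 90 such genes. Genes with long transcripts were low in it. Over 13794 genes with a RefSeq transcript length, the median log2 deviation of long transcripts (5082 bases or more) minus that of short ones (2097 bases or fewer) was -1.70 in animal 28 and -0.94 in animal 29 (ONTC, the youngest), against -0.32 to 0.32 in the other 11. Many results are therefore also given without animal 28, animal 29 or both. The part of depth or RNA quality in these profiles was not tested.

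**Figure D1:**
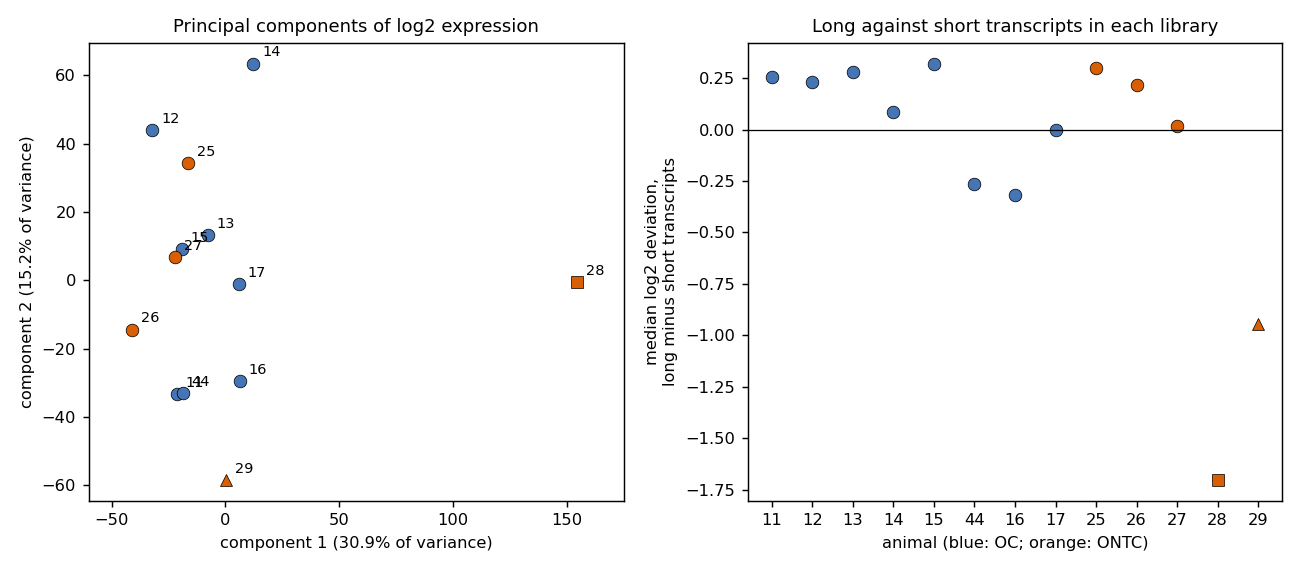
Left, first and second principal components of log2 expression in the 13 libraries, with the animal's number beside each point. Right, each library's median log2 deviation of long transcripts minus that of short transcripts, which was -1.70 in animal 28 (square) and -0.94 in animal 29 (triangle) and between -0.32 and 0.32 in the other ONTC (orange) and OC (blue) animals.

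Across the transcriptome, limma called 0 genes between ONTC and OC after adjustment. Other tools called 0 to 11, and limma with sample quality weights called 23. Of 16264 genes whose mean reached 0.3 CPM, 0 (0%) had an adjusted p-value under 0.05 (limma on log2 values with Benjamini-Hochberg adjustment), and the smallest adjusted p-value was 0.763, shared by 3 genes. At an unadjusted p-value under 0.05, the threshold of the study, 684 genes passed (4.21%), 204 of them higher in ONTC (1.25%) and 480 lower (2.95%). Mean differences over 1 on the log2 scale, meaning 2-fold, were found in 401 genes, 192 higher and 209 lower. The 95% confidence interval of a gene's log2 difference had a median half-width of 0.62, and in 10383 genes (63.8%) it lay within -1 and 1. In those genes a 2-fold difference between the groups lies outside the interval. The median log2 difference over all genes was -0.01.

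The balance of higher and lower genes rested on single libraries. Without animal 28 there were 578 higher (3.55%) and 421 lower genes (2.59%) at the unadjusted threshold. Without animal 29 there were 258 (1.59%) and 226 (1.39%), and without both 569 (3.5%) and 187 (1.15%). After each omission 0 genes passed the adjusted threshold. Of the 480 lower genes, 201 stayed below the unadjusted threshold when animal 28 was left out and 0 changed sign. The spread within ONTC was also larger, with a median SD of 0.63 on the log2 scale against 0.38 in OC. Without animal 28 it was 0.42. Tests on recovered reads gave few calls: edgeR's quasi-likelihood test called 0 genes after adjustment (736, or 4.53%, at the unadjusted threshold), its exact test 7 (0.043%) and DESeq2 11 (0.0676%), of which 6 genes were called by both of the latter. Those 6 include FAP, LTB, LZTS1, Mamu-B and RXFP3.

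The genes of cortisol action had overlapping levels in the 2 groups. HSD11B1 (chromosome 1, 67209536 to 67239875, plus strand, RefSeq annotation of Mmul_10) was measured at 7.76, 15.1, 8.40, 5.75 and 18.4 CPM in ONTC animals 25 to 29, and in OC at 1.91 (animal 14) to 14.3 CPM with a median of 10.3. The highest and second highest of all 13 levels were those of ONTC animals 29 and 26, the lowest that of OC animal 14, and the groups overlapped over most of their range. The means were 11.1 ± 5.39 CPM (SD, n = 5) and 9.86 ± 4.01 CPM (SD, n = 8). The log2 difference was 0.22 ± 0.49 (SE; exact permutation test over 1287 assignments, two-sided p = 0.749, adjusted over the 4 genes 0.999). Its 95% interval in limma ran from -0.69 to 1.14. Without OC animal 14 the difference was -0.09, and among animals of 23 to 28 years (3 ONTC and 5 OC) it was -0.16. It was 0.42 without animal 28, 0.006 without animal 29 and 0.20 without both. In the young animals HSD11B1 was at 3.16 to 8.55 CPM with a median of 7.36, a range that takes in 3 of the 5 ONTC levels and 1 of the 8 OC levels.

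NR3C2 (chromosome 5, 145686067 to 146051260, minus strand) had the largest log2 difference of these 4 genes with all 13 animals, though not without animal 28. Its levels were 54.6, 110.1, 86.4, 29.7 and 56.8 CPM in ONTC animals 25 to 29, against 70.9 to 134 CPM with a median of 84.0 in OC. Animals 25, 28 and 29 lay below every OC animal, while 26 and 27 lay inside the OC range. The log2 difference was -0.54 ± 0.29 (SE; exact permutation p = 0.0995, adjusted over the 4 genes 0.398), and the limma interval ran from -1.12 to 0.03. It was -0.28 without animal 28 (exact permutation p = 0.259) and -0.75 without animal 26 (p = 0.0202, adjusted over the 4 genes 0.0808, the smallest of all alternatives). Without animals 28 and 29 it was -0.16 (limma unadjusted p = 0.52). The transcript of NR3C2 is long (5862 bases), and the difference was -0.31 with each library's trend with transcript length removed.

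NR3C1 (chromosome 6, 140690312 to 141146718, minus strand) was at 53.3, 106, 72.6, 18.3 and 57.6 CPM in ONTC, with both the highest and the lowest of the 13 levels, and at 40.9 to 69.7 CPM in OC with a median of 55.0. Its log2 difference was 0.03 ± 0.34 (SE; exact permutation p = 0.999) and became 0.41 without animal 28 (p = 0.0646). Without animals 28 and 29 it was 0.50 with an unadjusted p-value of 0.0303 in limma (0 genes passed adjustment in that fit). H6PD (chromosome 1, 215226291 to 215257910, minus strand) was at 11.2, 7.63, 8.52, 6.18 and 4.07 CPM in ONTC and at 5.86 to 10.3 CPM in OC, and its log2 difference was -0.08 ± 0.22 (SE; exact permutation p = 0.732). Without animals 28 and 29 the H6PD difference was 0.26. NR3C1 and H6PD also have long transcripts (6508 and 6675 bases), and with the length trend removed their differences were 0.31 and 0.21. The smallest p-value this design allows is 0.00155. The absence of a call does not show that the groups had equal levels, since the limma intervals still hold differences of up to 1.14 for HSD11B1 and 0.69 for NR3C1.

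**Figure D2:**
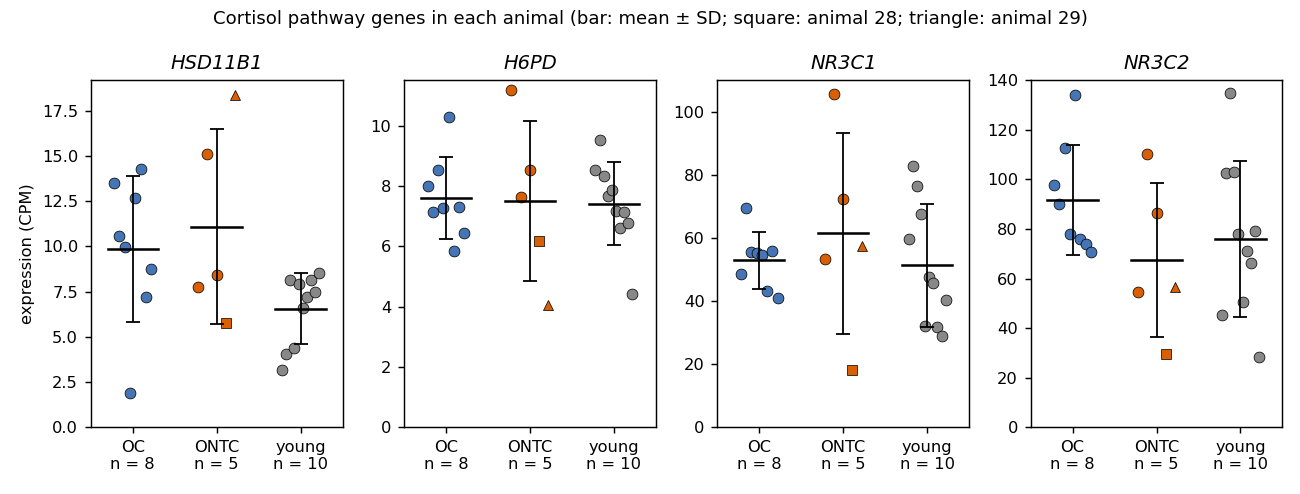
Expression in CPM of HSD11B1, H6PD, NR3C1 and NR3C2 in each OC, ONTC and young animal, with the mean and SD of each group as a line and bar. The ONTC and OC animals overlap in all 4 genes; animal 28 (square) is the lowest ONTC animal in HSD11B1, NR3C1 and NR3C2, and animal 29 (triangle) is the highest in HSD11B1 and the lowest in H6PD.

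Lists of the cortisol pathway and of its targets had medians near that of all genes. Of 13 tested genes of the pathway, the 4 above included (the enzymes and receptors, the chaperones of the receptors, and corticotropin-releasing hormone with its receptor and binding protein), 8 had a higher and 5 a lower mean in ONTC, with a median log2 difference of 0.03, and 0 passed either threshold. Without animals 28 and 29 NR3C1 alone passed the unadjusted one. Of 20 genes that glucocorticoids induce in many tissues, such as FKBP5, TSC22D3 and PER1, 9 had a higher and 11 a lower mean (median -0.06), and again 0 passed either threshold. This median was 0.13 without animals 28 and 29, when 1 member was higher at the unadjusted threshold (3.5% of all genes). Among 18 sex steroid and neurosteroid genes the median was 0.06, and the sulfotransferase gene SULT2B1 alone passed the unadjusted threshold (1.25% of all genes were higher at it). It was at 0.21, 4.14, 1.02, 0.48 and 0.51 CPM in ONTC and at 0.13 to 0.59 CPM in OC (log2 difference 1.62 ± 0.59, SE), so that only animals 26 and 27 lay above the OC range. Without animal 26 the difference was 1.00. Of 18 clock genes, NPAS2 (-0.59) and PER2 (-0.89) were lower at the unadjusted threshold (2.95% of all genes were). NPAS2, a partner of the clock's activating complex, had a difference of -0.36 without animals 28 and 29 (limma unadjusted p = 0.123). PER2, a repressor of the clock, was at 7.26, 15.1, 7.17, 2.09 and 2.63 CPM in ONTC against 6.42 to 14.3 CPM in OC, and its difference was -0.55 without animal 28 and -0.10 without animals 28 and 29. The median of the clock list was -0.09 with all animals and 0.22 without animals 28 and 29, when 2 members were higher (3.5% of all genes) and 0 lower at the unadjusted threshold.

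The genes with the smallest p-values, up to 12 in each direction among genes with a symbol, had adjusted p-values of 0.763 (LZTS1 and RXFP3) or 0.965 in limma. The 23 described here (11 higher and 12 lower) are given by their levels, and none is a call of the main test. Genes whose groups did not overlap were few: in 9 of all 16264 genes (0.0553%) every ONTC animal lay above every OC animal, and in 10 (0.0615%) every one lay below.

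LZTS1, a leucine zipper protein found at synapses, had the smallest p-value of all genes (chromosome 8, 20392511 to 20451066, minus strand). It was at 8.51, 6.94, 7.90, 5.61 and 6.32 CPM in ONTC and at 13.2 to 26 CPM with a median of 14.7 in OC. The groups were separate, and the ONTC animals lay closer together than the OC animals. The log2 difference was -1.25 ± 0.23 (SE; limma unadjusted p = 5.11e-05) and -1.09 without animals 28 and 29. The adjusted p-value was 0.0333 in edgeR's exact test, 0.000416 in DESeq2 and 0.781 in edgeR's quasi-likelihood test. The young animals, at 4.55 to 21.6 CPM, covered all ONTC levels and part of the OC levels.

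RXFP3, the receptor of the neuropeptide relaxin-3, was low in every animal, at 0.21, 0.22, 0.45, 0.29 and 0.14 CPM in ONTC and at 0.61 to 3.17 CPM in OC with a median of 1.20 (chromosome 6, 34067299 to 34072429, plus strand). No ONTC level reached the lowest OC level, and the means were 5.67-fold apart. The log2 difference was -2.33 ± 0.46 (SE), and -2.14 without animals 28 and 29, with an adjusted p-value of 0.0144 in the exact test, 0.000416 in DESeq2 and 0.781 in the quasi-likelihood test.

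Other genes of the lower set follow. NR4A3, an orphan nuclear receptor and immediate early gene, was at 18.3, 20.5, 23.5, 7.82 and 19.0 CPM in ONTC and at 24.8 to 41.5 CPM in OC (log2 difference -0.98 ± 0.25, SE), without overlap. ADARB2, a brain member of the RNA-editing deaminase family, was at 1.93, 1.74, 1.73, 1.53 and 0.69 CPM against 2.37 to 5.40 CPM (-1.17), and STUM at 1.99 to 5.57 CPM against 7.01 to 18.1 CPM (-1.26), also without overlap. ANKRD33B was at 0.57 to 1.47 CPM against 1.79 to 6.97 CPM (-1.38). In each of these 4 genes the lowest ONTC level was that of animal 28 or 29. The difference without both animals was -0.67 in NR4A3, -0.85 in ADARB2 and -0.89 in STUM and ANKRD33B. MN1, a transcriptional coregulator, BCL11B, a zinc finger transcription factor of neurons and T cells, SHISA7, an auxiliary subunit of GABA-A receptors, STK32B, a kinase, B3GALT5, a galactosyltransferase, and TMEM255A had log2 differences of -1.55 to -0.99 with groups that overlapped. The difference of TMEM255A was -1.45, and -0.96 without animal 28. That of B3GALT5 was -1.06, and -0.63 without animals 28 and 29. LZTS1, RXFP3, NR4A3, ADARB2, STUM, ANKRD33B, MN1 and BCL11B have long transcripts (5082 bases or more). With each library's trend with transcript length removed, their differences ran from -2.14 (RXFP3) to -0.62 (BCL11B, limma unadjusted p = 0.0561).

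The higher set was mixed. Mamu-B, a classical MHC class I gene that presents peptides to T cells, was at 60.1, 69.0, 92.1, 239 and 53.1 CPM in ONTC and at 18 to 49.9 CPM in OC with a median of 34.6. All 5 ONTC animals lay above all 8 OC animals, animal 28 far above the other 4. The log2 difference was 1.5 ± 0.37 (SE) and 1.25 without animals 28 and 29. The adjusted p-value was 0.0144 in the exact test, 0.0268 in DESeq2 and 0.926 in the quasi-likelihood test. MHC class I genes of macaques have many near-identical copies that vary between animals, so the reads of this gene may be split with others. Of 22 interferon and antigen presentation genes, 13 had a higher and 9 a lower mean (median 0.13), and 0 passed the unadjusted threshold.

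LTB, lymphotoxin beta of the TNF family (chromosome 4, 137930251 to 137932324, plus strand), was at 2.48, 7.59, 2.80, 5.57 and 2.23 CPM in ONTC and at 0.055 to 1.69 CPM in OC, again without overlap (2.56 ± 0.64, SE). Its lowest OC level, that of animal 11, rests on 3 reads, so that the size of the difference is uncertain. HAMP, which encodes the iron hormone hepcidin (chromosome 19, 34710459 to 34713224, plus strand), was at 1.30, 1.12, 1.73, 2.07 and 1.27 CPM against 0.24 to 0.98 CPM, without overlap (1.39 ± 0.35, SE). In young animals HAMP had a median of 0.39 CPM and a highest level of 3.19 CPM, above every ONTC and OC animal.

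FAP, a serine protease of activated fibroblasts, was at 5.27 CPM in animal 26 and at 0.45 to 1.20 CPM in the other 4 ONTC animals, against 0.083 to 0.56 CPM in OC (1.87 ± 0.57, SE). SRSF5, a splicing factor and the most abundant of the 23 genes, was at 192, 176, 153, 153 and 179 CPM in ONTC and at 94.5 to 158 CPM in OC (0.52 ± 0.16, SE), with 1 OC animal inside the ONTC range. OVOL2, CENPV, ASMTL, PRRG2, SPOUT1 and DHRS9 had log2 differences of 0.60 to 1.76, each with overlapping groups. CENPV and DHRS9 were highest in animals 28 and 29. Without both animals the difference went from 0.60 to 0.40 in CENPV and from 1.15 to 0.66 in DHRS9 (limma unadjusted p = 0.0385 and 0.0899). Each of the 23 genes kept the sign of its difference in every alternative that gave it a value. Mamu-B has no transcript length, and low genes did not pass the filter of 1 CPM in every animal.

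**Figure D3:**
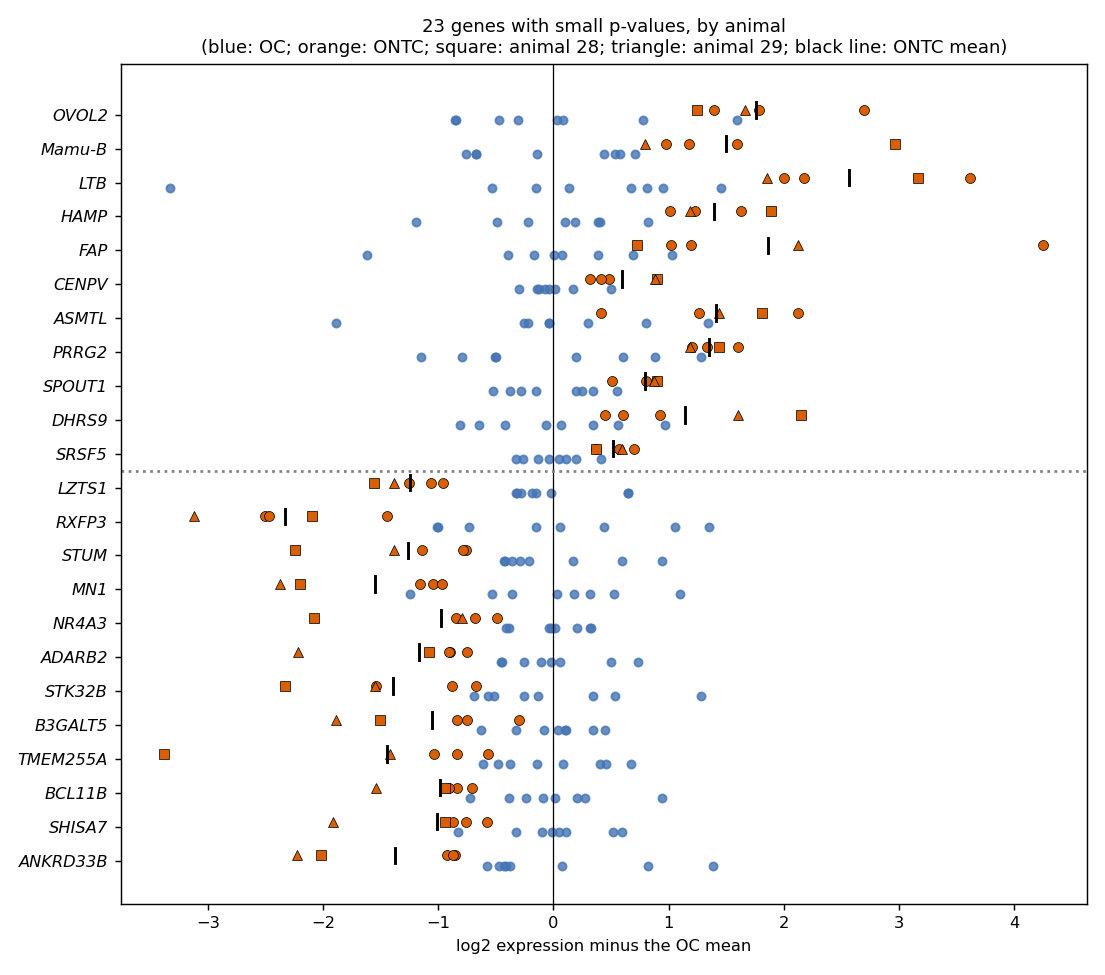
Log2 expression minus the OC mean in each OC (blue) and ONTC (orange) animal for 23 genes chosen by p-value, 11 higher in ONTC above the dotted line and 12 lower below it; the black line is the ONTC mean. Animal 28 (square) or 29 (triangle) is the lowest ONTC animal in all 12 lower genes.

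Lists of channel, receptor and synaptic genes had negative medians, which moved toward 0 when animals 28 and 29 were left out. Of 26 voltage-gated sodium, potassium, calcium and HCN channel genes, which set neuronal excitability, 24 had a lower mean in ONTC (median log2 difference -0.52, against -0.01 over all genes). At the unadjusted threshold 7 of them (among all genes 2.95%) were lower, among them CACNA1B (-0.82), CACNA1E (-0.92), CACNA1C (-0.74), SCN8A (-1.0), KCNA1 (-1.18) and CACNA1H (-0.68), and 0 passed adjustment. CACNA1B, the pore of the N-type calcium channel at presynaptic terminals, was at 36.9, 46.2, 37.9, 18.7 and 12.2 CPM in ONTC against 35.7 to 71.1 CPM in OC. Only animals 28 and 29 lay below the OC range, and the difference without both was -0.26. The median of the list was -0.32 without animal 28, -0.41 without animal 29 and -0.05 without both (all genes: 0.05, -0.01 and 0.09), when 0 members were lower at the unadjusted threshold. These are long genes, with a median transcript of 7646 bases, and the median was -0.21 after each library's trend with transcript length was removed.

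Receptors of glutamate and GABA, the main excitatory and inhibitory transmitters, were alike in this. Of 22 glutamate receptor genes 18 had a lower mean (median -0.47), and 6 were lower at the unadjusted threshold (2.95% of all genes): GRIK4, GRM5, GRIN2B, GRIN2D, GRIA1 and GRIK2. GRM5, a metabotropic receptor, was at 27.3, 45.8, 36.8, 3.86 and 16.2 CPM in ONTC and at 19.1 to 77.0 CPM in OC (-1.21). Only animals 28 and 29 lay below the OC range. The difference was -0.63 without animal 28 and -0.34 without both. GRIN2B, an NMDA receptor subunit, had another pattern, at 11.7, 7.66, 5.01, 15.7 and 5.82 CPM against 10.3 to 28.1 CPM (-0.75), with animal 28 the highest in ONTC and a difference of -0.88 without animals 28 and 29. The list's median was -0.27 without animal 28 and -0.15 without both, when 2 members were lower at the unadjusted threshold (1.15% of all genes). Of 15 GABA receptor genes 13 had a lower mean (median -0.33), and the median without animal 28 was -0.00. With all animals 2 of the 15 were lower at the unadjusted threshold (2.95% of all genes). GABRA5, which encodes the α5 subunit typical of hippocampal pyramidal cells, was at 218, 141, 191, 130.4 and 206 CPM against 203 to 286 CPM (-0.52 ± 0.17, SE), and its difference without both animals was -0.46.

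Of 25 monoamine, acetylcholine and opioid receptor genes, 21 had a lower mean (median -0.52). HTR4, HTR1A, HTR7, CHRM4 and CHRNB2 were lower and DRD5 was higher at the unadjusted threshold. HTR4, a serotonin receptor coupled to cAMP, was at 4.27, 6.70, 5.5, 1.62 and 5.59 CPM against 5.87 to 13.6 CPM in OC (-1.09 ± 0.33, SE), with animal 26 alone inside the OC range, and its difference without animals 28 and 29 was -0.75. DRD5, a dopamine receptor, was at 0.69, 1.46, 1.99, 3.17 and 3.25 CPM against 0.19 to 1.57 CPM (1.46 ± 0.53, SE). Its difference without animals 28 and 29, the highest in ONTC, was 0.93 (limma unadjusted p = 0.149). The list's median was -0.18 without both animals. At the unadjusted threshold 5 members were lower with all animals, 7 without animal 28 and 4 without both, and 1, 2 and 1 were higher (among all genes 2.95%, 2.59% and 1.15% lower and 1.25%, 3.55% and 3.5% higher). The 1 member higher without both was not DRD5. Synaptic vesicle and postsynaptic genes had a lower mean in 22 of 26 (median -0.36). The scaffold genes BSN, PCLO, SHANK1, SHANK2 and SHANK3 were lower at the unadjusted threshold (5 of 26 genes, against 2.95% of all genes). BSN, with a transcript of 15741 bases, was at 145, 103, 109.7, 29.2 and 26.5 CPM in ONTC and at 83.6 to 205 CPM in OC, so that animals 25 to 27 lay inside and animals 28 and 29 far below the OC range. Without animals 28 and 29 the list had a median of -0.14 and 0 members at the unadjusted threshold (among all genes 1.15% lower and 3.5% higher).

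Immediate early genes, which neurons switch on within minutes of activity, had a negative median as well. Of 16 genes 11 had a lower mean in ONTC (median -0.35). NR4A3, EGR3 and ARC were lower and ATF3, a stress-response factor, was higher at the unadjusted threshold (2.95% of all genes lower and 1.25% higher), and 0 passed adjustment. EGR3 was at 13.5, 13.9, 17.6, 5.93 and 6.77 CPM in ONTC against 14 to 26.2 CPM in OC (-0.79 ± 0.27, SE), so that animal 27 alone lay inside the OC range, and its difference without animals 28 and 29 was -0.30. ATF3 was at 4.74 to 7.47 CPM against 2.26 to 8.05 CPM (0.70 ± 0.29, SE). The median of the list was -0.34 without animal 28, -0.27 without animal 29, -0.29 without both and -0.37 with the transcript length trend removed. At the unadjusted threshold 5 members were lower without animal 28 (2.59% of all genes), 2 without animal 29 (1.39%) and 4 without both (1.15%).

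**Figure D4:**
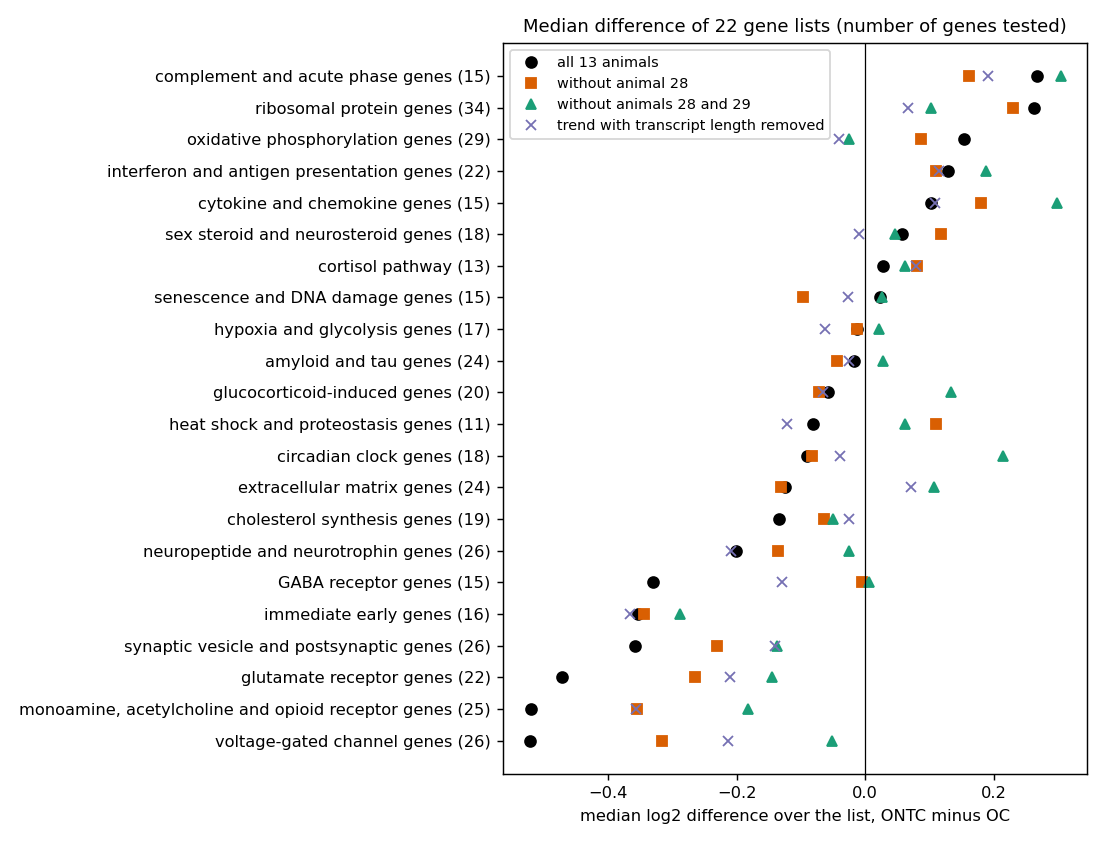
Median log2 difference, ONTC minus OC, of 22 gene lists in all 13 animals, without animal 28, without animals 28 and 29, and with the transcript length trend removed; the number of genes tested stands beside each name. The median of voltage-gated channel genes goes from -0.52 to -0.05 without both animals, while that of immediate early genes goes from -0.35 to -0.29.

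Among the other lists, complement and acute phase genes had a higher mean in 13 of 15 (median 0.27), ribosomal protein genes in 33 of 34 (0.26) and oxidative phosphorylation genes in 23 of 29 (0.15), and 0 members of these lists passed the unadjusted threshold in either direction. The 34 ribosomal entries cover 32 symbols. The complement median was 0.16 without animal 28, and 0.12 to 0.41 when 1 animal was left out. Without animals 28 and 29 the medians were 0.30, 0.10 and -0.02, in that order of lists. The ribosomal and oxidative phosphorylation genes are short, with median transcripts of 716 and 1111 bases, and their medians were 0.07 and -0.04 with the transcript length trend removed. Amyloid and tau genes had a median of -0.02, with MAPT, which encodes tau (-0.47), and GSK3B (-0.60) lower at the unadjusted threshold (2 of 24 genes, against 2.95% of all genes). Neuropeptide and neurotrophin genes had a median of -0.20, with the somatostatin receptor gene SSTR1 (-1.28) lower at that threshold (1 of 26 genes), and extracellular matrix genes one of -0.12, with TNR (-0.86) lower (1 of 24). Both shares are near that of all genes. MAPT was at 272, 249, 289, 181 and 121 CPM in ONTC against 224 to 381 CPM in OC, with animals 28 and 29 alone below the OC range. Its difference was -0.27 without animal 29 (limma unadjusted p = 0.162), and that of GSK3B was -0.38 without animal 28 (limma unadjusted p = 0.142). Without both animals the differences were -0.13 in MAPT, -0.15 in GSK3B and -0.20 in TNR, and 0 amyloid and tau genes and 0 extracellular matrix genes were lower at the unadjusted threshold. Of the neuropeptide and neurotrophin genes 3 were then lower at it (1.15% of all genes), while the median of their list was -0.02. When 1 animal was left out, that median ran from -0.27 to -0.002. The lists of cytokine, heat shock, hypoxia, cholesterol synthesis and senescence genes had medians of -0.13 to 0.10 and 0 members at the unadjusted threshold.

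Markers of hippocampal neurons and glia were present in every library, with wide spread between animals of the same group. In bulk tissue, fewer cells of a type cannot be told apart from less RNA per cell. The excitatory neuron gene SLC17A7, the vesicular glutamate transporter, was at 1109 to 1805 CPM in ONTC and at 1413 to 2317 CPM in OC. PROX1, a transcription factor of dentate granule cells, was at 4.67 to 18.4 CPM and 7.11 to 18.5 CPM. Markers of the subfields also varied between animals. FIBCD1, a marker of CA1 pyramidal neurons, was at 11.6 CPM in ONTC animal 25 and at 63.7 to 139.5 CPM in the other 4, against 57.1 to 547 CPM in OC (-1.32 ± 0.59, SE). Its difference was -0.72 without animal 25. The 8 dentate granule markers had a median log2 difference of -0.42 (0.08 without animals 28 and 29) and the 8 CA1 markers one of -0.33 (-0.33 without both). The summed level of 10 neuron markers was 3328 to 7979 CPM in ONTC and 4901 to 6881 CPM in OC. Lower means in ONTC were found in 9 of these 10 (median -0.16), 9 of 10 inhibitory (-0.24) and 7 of 10 excitatory neuron markers (-0.24). Without animals 28 and 29 these medians were -0.12, -0.11 and -0.30. All 10 gene entries of oligodendrocyte markers, which cover 9 symbols, had a higher mean in ONTC (median 0.34, with 0 at the unadjusted threshold). The median was 0.45 without animal 28, and 0.16 to 0.45 when 1 animal was left out. The marker sums of 12486 to 24129 CPM in ONTC and 6056 to 21862 CPM in OC overlapped. The lowest sum was that of OC animal 14, the animal lowest in HSD11B1. Of 10 astrocyte markers 7 had a lower mean (median -0.31). The median was -0.12 without animal 28 and -0.04 without animals 28 and 29. Among the 7 was SLC1A2, a glutamate transporter with 296, 342, 252, 31.0 and 75.3 CPM in ONTC. Its difference was -0.02 without animals 28 and 29. GFAP was at 2969 to 21383 CPM in ONTC, highest in animal 25, and at 3646 to 13220.2 CPM in OC.

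Choroid plexus and meninges, which adjoin the hippocampus, had markers at very different levels between animals. TTR, transthyretin of the choroid plexus, was at 776, 10.3, 1773, 93.6 and 99.5 CPM in ONTC and at 13.9 to 5445 CPM in OC, so that animals 12, 27 and 25 had the highest levels. The summed level of 9 fibroblast markers was 137.1 to 460.4 CPM in ONTC and 74.0 to 603.8 CPM in OC (median log2 difference 0.64, 0 of 9 at the unadjusted threshold). Leaving out 1 animal gave medians of 0.14 to 1.11. FAP, above, was highest in animal 26, whose fibroblast sum of 176.4 CPM was inside the OC range. The summed level of 9 microglial markers was 233.8 to 411.1 CPM in ONTC and 235.9 to 392.7 CPM in OC. Of 11 blood markers only 2 were tested, so no value is given for blood. The part of tissue make-up in the differences above was not tested.

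**Figure D5:**
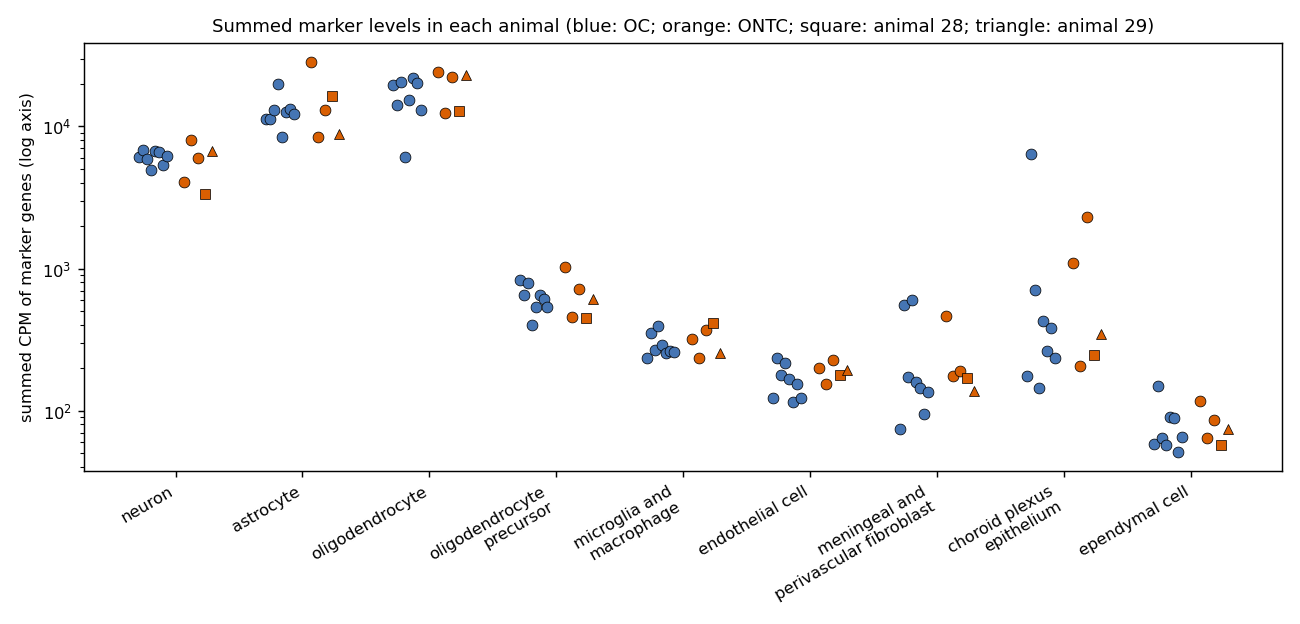
Summed CPM of marker genes of 9 tissue components in each OC (blue) and ONTC (orange) animal, on a log axis; animal 28 is a square and animal 29 a triangle. The groups overlap in every component, and choroid plexus markers span the widest range, up to 6351 CPM in OC animal 12.

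The ages of the groups overlapped, with the youngest animal in ONTC and the oldest in OC. With age as a covariate 0 genes passed the adjusted threshold. LZTS1 had an unadjusted p-value of 0.000103 in limma with age in the model, RXFP3 0.000166 and Mamu-B 0.000649. With only the animals of 23 to 28 years (3 ONTC and 5 OC), 0 genes passed adjustment as well.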

How the data were processed

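Hippocampal RNA of 28 male macaques was sequenced from stranded mRNA libraries. Reads were aligned with STAR to Mmul_10. The labels list featureCounts among the tools, while the study's methods give STAR as the source of the read counts. The authors deposited normalized counts, a signal with each library scaled to the same total, which is proportional to CPM. All values of the 13 animals compared (100%, tolerance 0.01 read) were whole reads times 1 factor per animal, so reads were recovered. The authors' mean columns of ONTC and OC were used only to check membership. GEO's labels carry no group name: groups follow the animal numbers in the titles, and 5 animals of the series were left unassigned. Nothing says that groups shared a batch.

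Genes whose mean over the 13 animals reached 0.3 CPM were tested with limma 3.58.1 (trended variance) on log2(value + 0.5), two-sided, with Benjamini-Hochberg adjustment. The added 0.5 equals 0.00666 CPM, so it shrinks mainly those log2 differences that involve levels close to 0 CPM. edgeR 4.0.16 and DESeq2 1.42.0 ran on recovered reads as alternatives. HSD11B1, NR3C1, NR3C2 and H6PD had exact permutation tests (scipy 1.17.1). They are called the 4 study genes here, although the study does not name H6PD. Genes were named as the 4 study genes, the 12 with the smallest p-values in each direction among genes with a symbol (561 symbols added from a reference table, 1996 genes without), up to 2 members of a list in each direction at unadjusted p under 0.05, and defining markers. ARC, GRIN2D, GRIA1, GRIK2, HTR7, CHRM4, CHRNB2, PCLO, SHANK2, SHANK3, CACNA1E, CACNA1C, SCN8A, KCNA1, CACNA1H, FKBP5, TSC22D3 and PER1 fall outside this rule, as do genes named by another tool. The members and lists were chosen with earlier results of these data known. Alternatives without animal 28 combined with another choice, without animals 28 and 29, or with transcript length trends removed were chosen after seeing the data. The fits were tested on simulated data. Transcript lengths are the longest RefSeq transcript of Mmul_10. Some genes that the rule names are not reported here.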

Additional observations from a re-analysis of the deposited data

Results flagged for a closer look

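In 13 of 140 groups of values tested, 1 animal lay far from the rest of its group, judged by the gap to its nearest neighbour as a share of the group's range on the log2 scale (Dixon's test). Chance flags about 1 in 20 groups. Animals 28 and 29 account for 4 of them: animal 28 was lowest in NR4A3 (0.773), and animal 29 was lowest in ADARB2 (0.773), BCL11B (0.726) and SHISA7 (0.728). Animal 25 of ONTC was lowest in SPOUT1 (0.757), lowest in the score of heat shock and proteostasis genes (0.771) and highest in the summed fibroblast markers (0.733). In OC, animal 14 was lowest both in HSD11B1 (0.660) and in the summed oligodendrocyte markers (0.602). Animal 11 was lowest in LTB (0.584) and in the neuropeptide and neurotrophin score (0.543). Animal 12 was highest in the choroid plexus markers (0.579) and animal 16 in the markers of striatum, thalamus and amygdala, which adjoin the hippocampus (0.567).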

How the results depend on the processing

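The count of genes at an adjusted p-value under 0.05 was 0 in limma and moved to 7 in edgeR's exact test, 11 in DESeq2 and 23 with sample quality weights, and ranged from 0 to 1 when 1 animal was left out (1 without animal 17). The 204 higher genes became 434 in DESeq2, 347 in the exact test, 359 in the quasi-likelihood test, 1771 with weights, 110 with at least 1 CPM in every animal, 311 without animals under 20 years, 569 without animals 28 and 29, 505 without animal 28 and with age as covariate, and 531 without animal 28 and with upper quartile scaling. Their range without 1 animal was 156 to 578. The 480 lower genes became 187 without animals 28 and 29, 139 at 23 to 28 years and 192 without animals under 20 years, and ranged from 226 (without animal 29) to 978 (without animal 25), with 283 without animal 15 and 857 without animal 26. The study genes changed sign at 23 to 28 years (HSD11B1 -0.16, NR3C1 -0.18, H6PD 0.12) and without animals under 20 years (HSD11B1 -0.30, H6PD 0.12), and H6PD had a difference of mean ranks of 0. Leaving out 1 animal gave ranges of -0.088 to 0.42 (HSD11B1), -0.22 to 0.41 (NR3C1) and -0.24 to 0.13 (H6PD), all uncalled. List medians moved by more than the spread between animals in 6 cases, with 1 list counted under more than 1 setting. Without animals 28 and 29 these were glucocorticoid-induced genes (0.13), monoamine, acetylcholine and opioid receptors (-0.18) and oligodendrocyte precursor markers (-0.049). With the length trend removed they were precursor markers again (-0.070) and subiculum markers (0.33). When 1 animal was left out, CA2 and CA3 markers moved (-0.34 to 0.15). The causes were not tested. No scaling moved the median of all genes by over 0.03 on the log2 scale. No paired analysis was possible because the groups share no replicate numbers. With 5 and 8 animals, the 95% interval of a gene reached a median of 0.62 on the log2 scale to either side.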
